A study of Mus musculus with 12 samples.

Results

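The regions described here stayed open, and evenly open by group mean, in every group of thymic iNKT cells of the study. They are stretches of 500 bp in which each of 12 ATAC-seq libraries had a log2 value of at least 6, that is 64 normalised transposase insertions per kb, and in which the highest and the lowest of the 6 group means lay less than 0.4 apart, a 1.32-fold difference. Of the 63309 listed regions, 5623 (8.88%) were strong, with 12 of 12 values at 6 or more. Of these strong regions, 4179 (74.3%) also met the limit on the group means, which is 6.6% of the whole list; they are called invariant strong regions below. The other 1444 strong regions, called varied, serve as the nearest comparison. The members were selected on these measured values, the 12 library values and the 6 group means, so levels and group differences of the invariant regions are given as a description and carry no test.

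The study used Omni-ATAC, in which a transposase cuts and tags accessible DNA, on 3 subsets of invariant natural killer T cells from the thymus. These cells carry a T cell receptor that sees lipids on CD1d, and mature into iNKT1, iNKT2 and iNKT17 cells, which make different cytokines. Each subset was taken from untreated mice of 8 to 9 weeks, of both sexes, that were either wildtype C57BL/6 or lacked Hivep3, which encodes a large zinc finger protein of the Schnurri family. There were 2 libraries in each of the 6 groups. The Hivep3-/- mice had been backcrossed to C57BL/6. Cells came from pooled thymi per the protocol, while titles number the libraries by mouse, so the spread between replicates may be that of preparations and not of animals. Subsets were pooled for the transposition and sorted apart again by ICOS and CD138, after the signal of CD122 and Izumo1r had been lost.

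The promoter of the targeted gene was itself an invariant strong region. At Hivep3 (chr4:119733529-119734028, centre 18 bp upstream of the start) the C57BL/6 libraries read 6.53 and 6.50 in iNKT1, 6.72 and 6.63 in iNKT2, and 6.64 and 6.53 in iNKT17. The Hivep3-/- libraries read 6.46 and 6.51, 6.36 and 6.44, and 6.50 and 6.51 in the same order. The promoter was open in both genotypes, with Hivep3-/- iNKT2 lowest and C57BL/6 iNKT2 highest on average. Both Hivep3-/- libraries lay below both of C57BL/6 in iNKT2 and iNKT17, while in iNKT1 the genotypes overlapped. The labels do not say which piece of the gene was removed, so its value checks no label. The subset labels can be checked at marker promoters. Tbx21, the master factor of type 1 cells, had group means of 5.17 in C57BL/6 iNKT1, 4.58 in iNKT2 and 3.71 in iNKT17, and 5.29, 4.28 and 3.72 in Hivep3-/-. Izumo1r, a surface marker used to sort iNKT2 cells, was highest in iNKT2, at 6.36 in C57BL/6 and 6.03 in Hivep3-/-. Sdc1, which encodes the CD138 used to sort iNKT17 cells, stood at 6.25 and 5.99 in iNKT17 of the 2 genotypes and at 3.80 or lower in the other 4 groups. Of the markers of other cells, 2 genes each of the B cell, myeloid, double-positive thymocyte and thymic epithelial lists had a listed promoter region, and 0 had a strong one. Their highest values were those of Cd1d1, which reached 6.43 in Hivep3-/- iNKT2, and Cd68, which reached 6.04 in C57BL/6 iNKT2. Some differed between groups. Blk, from the B cell list, stood at 5.81 and 5.64 in iNKT17 of the 2 genotypes and at 1.45 or lower in the other 4 groups. Ebf1, the other listed gene of that list, was lowest in iNKT17 in C57BL/6, at 2.74, and highest in iNKT17 in Hivep3-/-, at 3.29. Aire, from the epithelial list, stood at 5.50 and 5.49 in iNKT2 and at 4.6 or lower in the other 4 groups. Epcam, the other listed gene of that list, was lowest in iNKT2, at 3.13 in C57BL/6 and 3.01 in Hivep3-/-. Arpp21, from the double-positive list, stood at 4.03 in C57BL/6 iNKT2 and at 2.68 or lower in the others. Cebpa, from the myeloid list, ran from 3.29 in C57BL/6 iNKT1 to 4.77 in C57BL/6 iNKT17. Defining genes such as Lyz2, Rag1 and Foxn1 had no listed region at a start. Read depth is unknown, because the deposited values were scaled to near equal sums.

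ATAC-seq signal is strongest where nucleosomes are displaced, and at most active genes that is the stretch just upstream of the transcription start. Genes that every cell needs often start in a CpG island, a GC-rich stretch that is mostly unmethylated and that stays free of nucleosomes in many cell types. Genes that set one cell type apart from another more often rely on distant enhancers, where transcription factors of that lineage bind.

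The following stretches come from 8 gene classes, and show what kind of DNA lies in such regions. Each is from an invariant promoter that held at least 100 bases free of annotated exons ahead of the start and a motif match, and in most classes higher promoters were passed over. Each holds up to 150 bases ahead of an annotated start in the mm10 build (GRCm38), free of annotated exons, on the strand of the gene. The capitals mark a match to a short motif of a transcription factor. Rpl37 is shown at chr15:5116495-5116644 on the plus strand, with the ETS letters CCGGAAG. Psmb3 (chr11:97703249-97703398, plus), Hnrnpc (chr14:52104029-52104178, minus), Atp5g1 (chr11:96075671-96075820, minus) and Bcl10 (chr3:145924112-145924261, plus) carry the NFY letters AGCCAAT on either strand. Kdm4b (chr17:56325924-56326030, plus) and Nr4a1 (chr15:101266696-101266845, plus) carry the SP/KLF letters GGGCGGGG on the opposite strand. Stat5a (chr11:100860334-100860483, plus) carries the TCF letters TCAAAGG on the opposite strand. A match describes letters and is not evidence of a bound factor.
Rpl37: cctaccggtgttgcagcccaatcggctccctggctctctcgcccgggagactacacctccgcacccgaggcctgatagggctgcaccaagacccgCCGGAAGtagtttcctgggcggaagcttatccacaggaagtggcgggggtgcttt
Psmb3: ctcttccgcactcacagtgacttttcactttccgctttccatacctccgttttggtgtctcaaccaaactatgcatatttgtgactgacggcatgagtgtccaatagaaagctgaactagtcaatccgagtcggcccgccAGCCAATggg
Hnrnpc: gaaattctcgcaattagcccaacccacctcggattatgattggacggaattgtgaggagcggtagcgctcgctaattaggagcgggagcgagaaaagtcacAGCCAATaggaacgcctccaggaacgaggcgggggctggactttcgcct
Atp5g1: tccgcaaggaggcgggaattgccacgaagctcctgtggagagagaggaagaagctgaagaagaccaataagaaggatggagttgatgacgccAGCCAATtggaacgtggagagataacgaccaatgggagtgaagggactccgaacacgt
Kdm4b: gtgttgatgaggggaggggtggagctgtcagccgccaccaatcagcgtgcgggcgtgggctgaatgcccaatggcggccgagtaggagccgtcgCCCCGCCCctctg
Bcl10: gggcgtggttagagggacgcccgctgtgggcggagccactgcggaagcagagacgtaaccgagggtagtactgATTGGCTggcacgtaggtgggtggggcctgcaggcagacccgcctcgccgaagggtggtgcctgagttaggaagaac
Stat5a: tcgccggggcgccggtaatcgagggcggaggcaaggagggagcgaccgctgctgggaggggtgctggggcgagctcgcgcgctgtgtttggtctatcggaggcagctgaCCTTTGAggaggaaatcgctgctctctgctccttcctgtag
Nr4a1: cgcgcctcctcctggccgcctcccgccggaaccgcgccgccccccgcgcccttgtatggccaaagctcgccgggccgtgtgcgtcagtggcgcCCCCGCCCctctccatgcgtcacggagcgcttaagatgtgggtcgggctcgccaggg

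The next stretches come from the 3 invariant regions of highest level that lie away from starts and match the CTCF consensus with at most 1 mismatch. They show examples of a minority, since most invariant regions away from starts held no such match. The capitals mark the match, and the plus strand of mm10 is printed. The nearest starts are those of Fbrs (chr7:127477887-127477986), Dnah17 (chr11:118145764-118145821) and 8430426J06Rik (chr15:81301433-81301532).
Fbrs: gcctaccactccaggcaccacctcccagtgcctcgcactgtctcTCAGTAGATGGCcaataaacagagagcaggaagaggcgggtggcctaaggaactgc
Dnah17: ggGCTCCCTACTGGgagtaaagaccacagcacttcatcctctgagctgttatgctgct
8430426J06Rik: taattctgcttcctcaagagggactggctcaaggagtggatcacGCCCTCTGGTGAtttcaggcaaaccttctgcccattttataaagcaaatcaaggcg

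The level of an invariant region was typically 6.84 on the log2 scale, the median over regions of the mean of 12 libraries, against 6.77 in varied strong regions and 3.76 in all listed regions. Means of the invariant regions ran from 6.08 to 9.95, with 5% to 95% of them between 6.27 and 7.87. The median difference between the highest and the lowest group mean was 0.227, and 1601 regions (38.3%) had a difference below 0.2. Replicates of a group differed by a median of 0.083. In 1572 invariant regions (37.6%) the 6 group means lay closer together than the replicates of the least even group, against 29 of the varied regions (2.01%). The rule largely sets this contrast, as it split the 2 sets on the range of group means. The replicate difference of the least even group was alike in both, with medians of 0.182 and 0.193. The share of strong regions that were invariant was 77.8% at means from 6 to 6.5, 67.7% from 6.5 to 7 and 75.8% from 7 to 7.5. It was 85.2% from 7.5 to 8, and 118 of the 127 strong regions above 8 (92.9%) were invariant. The invariant regions held between 27.7% and 29% of the linear signal of each library.

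**Figure D1:**
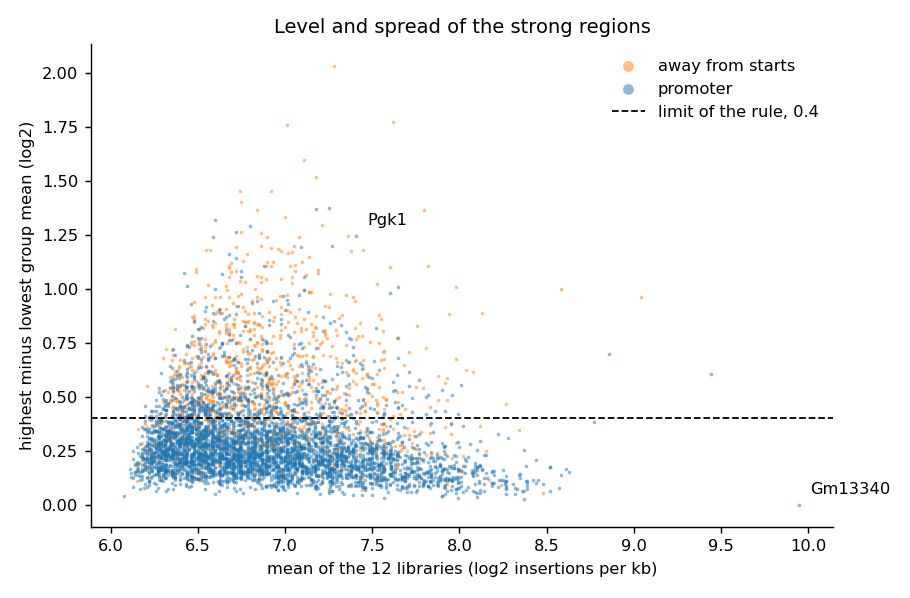
Each point is 1 of the 5623 strong regions, with the mean of its 12 libraries (log2 insertions per kb) on the horizontal axis and the highest minus the lowest group mean (log2) on the vertical axis, coloured by whether the region lies within 1000 bp of a start. The 4179 regions under the dashed line at 0.4 are the invariant ones, and spread reaches 2.03 among the varied regions.

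Ap2a1, which encodes the alpha subunit of the clathrin adaptor AP-2, had the most even strong promoter of a known gene, with a mean of 8.37 and a range of group means of 0.028. Its C57BL/6 libraries read 8.37 and 8.37 in iNKT1, 8.37 and 8.35 in iNKT2, and 8.40 and 8.37 in iNKT17. Its Hivep3-/- libraries read 8.37 and 8.36, 8.35 and 8.37, and 8.33 and 8.38. The lowest and the highest value came from iNKT17 libraries of opposite genotype, and the 6 groups overlapped. Strn (striatin, range 0.031), Etfdh (an enzyme that passes electrons to the respiratory chain, 0.031), Fam76b (0.037), Zfp446 (0.039) and Ube2s (0.039) came next. Ube2s encodes the ubiquitin-conjugating enzyme that extends chains for the anaphase-promoting complex. Its 12 libraries lay between 7.84 and 7.93, with the groups interleaved. St7l was even at the bottom of the allowed level, with a mean of 6.08 and a range of 0.040.

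At the top of the scale stood a region beside Gm13340 (chr2:22589443-22589942), with 9.95 in 12 of 12 libraries and a range of 0.000. It was the highest of the list in each library, and quantile normalisation gives the highest region of each library the same value, so its evenness follows from the rank. Of its 25-base words, 74.2% also occur in the mitochondrial genome, so reads of mitochondrial DNA and of this copy cannot be told apart there. The next highest invariant regions lay at Sp1 (8.77), Rab40c (8.63), Kctd9 (8.61), 2700012I20Rik (8.58) and Fam72a (8.57). Mxd4, a repressor that pairs with MAX, Cic, a repressor of growth factor target genes, and Osbp, a sterol carrier, each stood at 8.52. Sp1 encodes the factor that binds GC boxes at many CpG island promoters. Its replicates disagreed most in C57BL/6 iNKT1, at 8.67 and 9.30, and the remaining 10 libraries lay between 8.57 and 8.82.

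Regions next to the limits differed little from those just beyond them. The lowest library of Cox6a1, F730043M19Rik and Lztfl1 was 6.00 and inside the limit, while that of Soat1, Paox and Tmem216 rounded to 6.00 and fell just short. On the other limit, a region in AC157910.5 (0.4 after rounding), Vamp9 (0.399) and a region near Gm37078 (0.399) were inside, and those of Gm26729, Hlcs and Gm47096 were just outside, each at 0.4.

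Invariant strong regions were mostly promoters. With a promoter taken as a region centred within 1000 bp of an annotated start, 3681 of 4179 (88.1%, 95% Wilson interval 87.1 to 89) were promoters, against 49.9% of varied strong regions and 31.2% of all listed regions. A further 252 (6.03%) lay in introns, 212 (5.07%) between genes and 34 (0.814%) in exons. Seen from the other side, 83.6% of strong promoters were invariant, while 36.5% of strong intronic regions and 46.5% of strong regions between genes were. The Wilson interval covers counting error, and neighbouring regions are not independent.

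The invariant regions sat directly on the start. The centre was within 100 bp of a start in 2357 of them (56.4%), against 25.6% of the varied and 14.2% of all regions. Among invariant promoters the median position of the centre was 42 bp upstream of the start (-42 bp), with quartiles of -104 and 8 bp. The nearest start belonged to a protein-coding gene in 3393 invariant promoters (92.2%), compared with 83.9% of varied and 82.1% of all listed promoters, and to a lincRNA in 83 (2.25%). Strong regions over 10000 bp from any start numbered 183 among the invariant (4.38%), while they made up 23.8% of the varied and 35.6% of all regions. By chromosome, the count ran from 14.4 per 100 protein-coding genes on chromosome 14 to 24.1 on chromosome 19 among autosomes. Chromosome X had 68, or 7.17 per 100 genes, and there 82.9% of the strong regions were invariant.

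**Figure D2:**
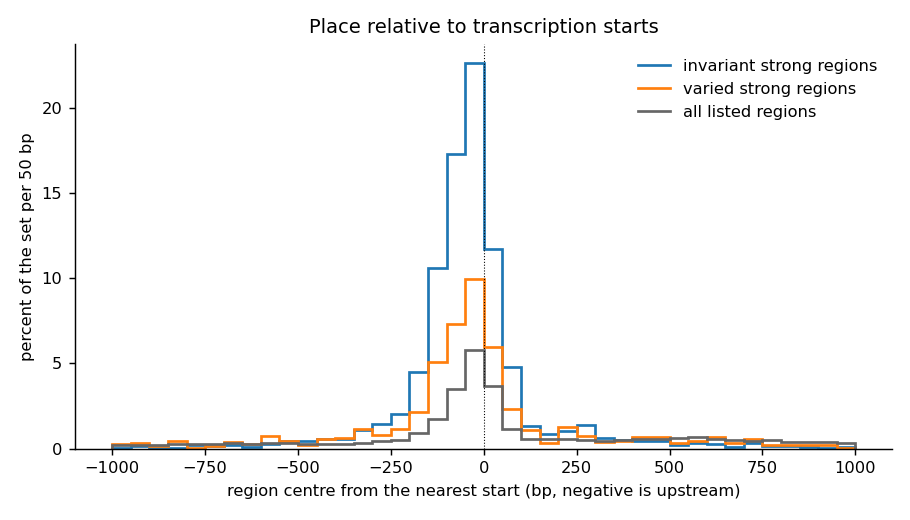
Share of each set (percent per 50 bp) by distance of the region centre from the nearest annotated start (bp, negative upstream), for invariant strong, varied strong and all listed regions. The invariant regions peak in the 50 bp just upstream of the start, which held 22.6% of them against 9.97% of the varied and 5.82% of all regions.

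The invariant regions were rich in G and C. Their median GC share was 0.622 and their median ratio of observed to expected CpG was 0.795, against 0.554 and 0.466 in varied strong regions and 0.500 and 0.292 in all regions. With CpG-rich taken as a GC share of at least 0.5 and a ratio of at least 0.6, 3406 invariant regions (81.5%, Wilson interval 80.3 to 82.7) were CpG-rich. The shares were 37.5% in varied and 20.8% in all regions. Part of the contrast came with place, yet it was also seen among promoters, where 88.8% of invariant, 66.8% of varied and 59% of all regions were CpG-rich. Of the strong promoters rich in CpG, 3267 of 3748 (87.2%) were invariant, and of those not rich in CpG, 414 of 653 (63.4%).

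Many invariant regions served a pair of genes. In 886 of them (24.1% of the invariant promoters) such starts lay within 1000 bp of the region centre, against 15.6% of varied and 13.5% of all promoters. This place does not show that a region serves both genes. Some partners had only Gm or Rik names, and the examples here are pairs of named genes. Mrpl18, for a protein of the mitochondrial ribosome, shared its region with Tcp1, for a subunit of the chaperonin that folds actin and tubulin, at a level of 7.98. Mrpl32 shared one with the proteasome gene Psma2 (6.52), and Mrpl51 with Ncapd2, for a condensin subunit (7.33). Rps25, for a protein of the small ribosomal subunit, shared one with Trappc4, a vesicle tethering factor (6.77). Hnrnpa1 and Cbx5 shared a region at 7.48 and Hnrnpa2b1 and Cbx3 another at 7.39, each pairing an RNA-binding protein with a heterochromatin protein.

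Motifs of general promoter factors were frequent in the invariant promoters. Letters were searched on both strands of the 500 bp, and none of the strings contains another. The SP/KLF letters GGGCGGGG occurred in 46% of invariant, 40.6% of varied and 30.7% of all promoters, and the ETS letters CCGGAAG in 27.7%, 22.2% and 16.4%. The NFY letters AGCCAAT were found in 23.1%, 13.9% and 9.73%, and the YY1 letters AAGATGGC in 8.99%, 3.75% and 5.1%. ZBTB33 letters, TCTCGCGA, were found in 4.32%, 1.67% and 1.67%, and those of the NRF1 core, CGCATGCG, in 4.65%, 2.5% and 2.7%. CRE and USF E-box letters were about as common in varied promoters. CRE letters (TGACGTCA) were found in 4.59%, 5% and 2.8%, and those of the USF E-box (CACGTGAC) in 5.79%, 5.14% and 3.64%.

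Runt, AP-1, T-box and TCF letters were less frequent in invariant than in varied promoters. The Runt letters AACCACA occurred in 4.89% of invariant promoters against 10.1% of varied and 8.63% of all, and the AP-1 letters TGANTCA in 6.25%, 11.7% and 9.08%. T-box letters (AGGTGTGA) were found in 1.09%, 2.08% and 1.73%, and TCF letters (TCAAAGG) in 5.27%, 5.69% and 6.36%. Base content moves with these shares. Among CpG-rich promoters alone, SP/KLF letters stood level, at 48% of invariant and 47.8% of varied promoters, while NFY letters still stood at 23% and 15.8% and YY1 letters at 9.46% and 4.57%. There the Runt share was 4.44% in invariant, 6.44% in varied and 4.45% in all promoters, that of AP-1 5.75%, 7.69% and 5.42% and that of T-box 1.1%, 1.46% and 1.23%. For TCF it was 4.78%, 3.95% and 4.47%, so the order of invariant and varied promoters turned.

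Counted by gene, 4033 of the 12457 protein-coding genes with a listed promoter region (32.4%) had an invariant strong one. Of the 4628 with a strong promoter region, 87.1% had an invariant one. Named classes of genes lay on both sides of the first share. The classes are hand-written lists of gene symbols, counts are of genes, and no class was tested for enrichment.

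**Figure D3:**
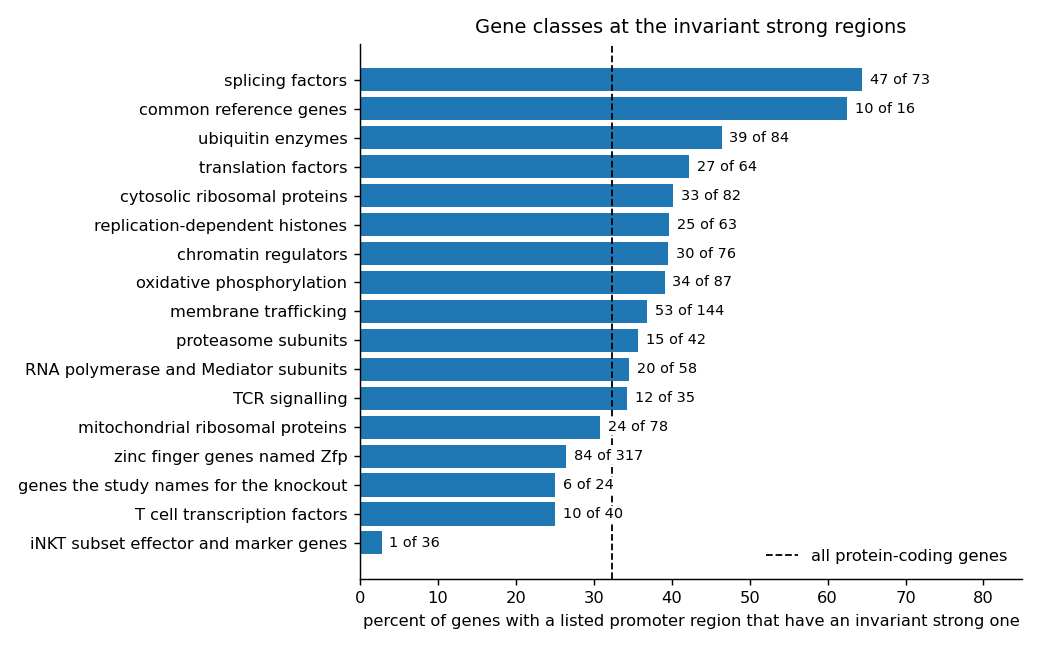
Bars give, for each gene class, the percent of its genes with a listed promoter region that had an invariant strong one, with the counts beside each bar; the dashed line is the share over all protein-coding genes, 32.4%. Splicing factors reached 64.4% and iNKT subset effector and marker genes 2.78%.

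Splicing factors stood highest, with 47 of 73 genes (64.4%), and 95.9% of their strong promoters were invariant. Hnrnpc, for a protein that coats nascent pre-mRNA, led them at 8.27 with a range of 0.133. Its C57BL/6 libraries read 8.37 and 8.32 in iNKT1, 8.32 and 8.28 in iNKT2, and 8.28 and 8.24 in iNKT17, and its Hivep3-/- libraries 8.32 and 8.29, 8.25 and 8.17, and 8.20 and 8.22. In both genotypes iNKT1 was highest on average, above iNKT17 in both libraries, and above iNKT2 in both libraries in Hivep3-/-. Hnrnpul2 (7.84), Snrpd2, for an Sm core protein of the spliceosome (7.73), and Hnrnpa3 (7.52) followed. Of the genes for subunits of RNA polymerases and Mediator, 20 of 58 (34.5%) had an invariant promoter, led by Med29 (7.84), Med19 (7.83) and Polr2h, a subunit shared by the nuclear polymerases (7.54).

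Polr2a, for the largest subunit of RNA polymerase II, had a mean of 7.53 and a range of 0.113. The C57BL/6 libraries read 7.63 and 7.53 in iNKT1, 7.56 and 7.43 in iNKT2, and 7.59 and 7.52 in iNKT17. The Hivep3-/- libraries read 7.54 and 7.61, 7.57 and 7.49, and 7.50 and 7.43. The replicates differed about as much as the groups.

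Genes of the translation machinery also lay above the share of all genes. Invariant promoters were found at 27 of 64 translation factors (42.2%) and at 33 of 82 genes of the cytosolic ribosome (40.2%). Eif4a1, the RNA helicase of the cap-binding complex, stood at 8.01, Eif4g2 at 7.97, Eif2ak3, the kinase that halts initiation under stress in the endoplasmic reticulum, at 7.94, and Eif2b4, a subunit of the exchange factor for eIF2, at 7.77. Rpl13a (7.50) and Rpl37 (7.45, printed above) of the large subunit and Rps29 (7.21, range 0.100) of the small subunit were among the highest of the ribosomal genes. Genes of the mitochondrial ribosome had a lower share, 24 of 78 (30.8%), as 25 of them had a strong promoter. Of those strong promoters 96% were invariant, among them Mrpl41 (8.00), Mrpl18 (7.98), Mrps18b (7.61) and Mrps16 (7.37).

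Energy and protein turnover were represented too, beside a share of 32.4% over all genes. The shares of proteasome subunits and of membrane trafficking, given below, lay near it. Of the genes for oxidative phosphorylation, 34 of 87 (39.1%) had an invariant promoter. Atp5g1, for the membrane ring of the ATP synthase, stood at 7.90 with a range of 0.285, and Ndufaf8 (7.69), Ndufs8 (7.60) and Ndufa6 (7.59) serve complex I. Of the ubiquitin enzymes, 39 of 84 (46.4%) were included, with the deubiquitinases Usp22 (8.25), which acts on histones, Usp1 (8.12), Usp20 (7.98, range 0.056) and Usp5 (7.91). Of the proteasome subunits, 15 of 42 (35.7%) were included. Psmb3, for a subunit of the inner ring, had a level of 7.25 and a range of 0.066, and Psma5 (7.63), Psme2 of the activator cap (7.20) and Psma4 (6.85) had ranges up to 0.244. Membrane trafficking had 53 of 144 genes (36.8%), with the small GTPases Rab40c (8.63), Rab8a (8.33, range 0.074), Rab11b of recycling endosomes (8.19) and Rab5b of early endosomes (7.98) at the top.

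Chromatin regulators had 30 of 76 genes (39.5%), and 96.8% of their strong promoters were invariant. Kdm4b, for a demethylase of histone H3, stood at 8.27 with a range of 0.049, and Kmt5c, for a methyltransferase of histone H4, at 8.19 with 0.087. Hdac4 (7.98) and Setd3 (7.88) followed. Replication-dependent histone genes had 25 of 63 (39.7%), and 75.8% of their strong promoters were invariant, near the 76.9% of polymerase and Mediator genes. The highest lay together on chromosome 3, at Hist2h2aa1 (7.67), Hist2h3c1 (7.56), Hist2h3c2 (7.50) and Hist2h2aa2 (7.36). These genes are near copies of each other, so reads may be shared between them. Genes named Zfp, mostly for zinc finger proteins, had 84 of 317 (26.5%), led by Zfp687 (8.12), Zfp574 (8.04), Zfp446 (7.90) and Zfp654 (7.87).

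Of 16 genes in common use as references, 10 had an invariant strong promoter region. Among them were Polr2a (7.53), Actb (7.50), B2m (7.04), Tfrc (6.95), Gapdh (6.82), Eef1a1 (6.77), Ywhaz (6.76), Ppia (6.67) and Tubb5 (6.37). At Gapdh, the glycolytic dehydrogenase, the C57BL/6 libraries read 6.91 and 6.88 in iNKT1, 6.90 and 6.85 in iNKT2, and 6.90 and 6.76 in iNKT17. The Hivep3-/- libraries read 6.80 and 6.68, 6.99 and 6.80, and 6.65 and 6.71. Hivep3-/- iNKT17 had the lowest mean and Hivep3-/- iNKT2 held the highest value, within a range of 0.216. Both Hivep3-/- libraries lay below both of C57BL/6 in iNKT1 and iNKT17, while in iNKT2 the genotypes overlapped. At Actb, for beta-actin, the region lay 801 bp inside the gene and its values ran from 7.29 in Hivep3-/- iNKT17 to 7.74 in Hivep3-/- iNKT1, where the replicates were 7.41 and 7.74.

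T cell receptor signalling was represented by 12 of 35 genes (34.3%), near the share of all genes. Their levels ran from 6.19 to 7.94. The scaffold of NF-kappaB signalling stood high, with the paracaspase Malt1 at 7.94 and its partner Bcl10 at 7.70, as did the calcium-responsive factor Nfatc3 at 7.72 and the phosphatase Ptpn22 at 7.26. The kinases Fyn (7.23) and Zap70 (6.56), the adaptor Grap2 (7.08), the NF-kappaB subunit Rela (6.50) and Nfatc2 (6.45) lay lower. Cd5, an inhibitory receptor (6.32), and Cd3e, a chain of the receptor complex (6.19), were just above the limit. At Cd3e the C57BL/6 libraries read 6.02 and 6.13 in iNKT1, 6.23 and 6.04 in iNKT2, and 6.15 and 6.16 in iNKT17. The Hivep3-/- libraries read 6.11 and 6.15, 6.35 and 6.33, and 6.45 and 6.22. The Hivep3-/- iNKT2 and iNKT17 groups were highest on average, and in these 2 subsets both Hivep3-/- libraries lay above both of C57BL/6.

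T cell transcription factors had 10 of 40 genes (25%), and 58.8% of their 17 strong promoters were invariant, against 87.1% over all genes. The members were Stat3 (7.92), Egr1 (7.56), Stat5a (7.49), Nr4a1 (7.33), Egr2 (7.14), Id2 (7.10), Tcf3 (6.90), Rora (6.89), Zbtb7b (6.40) and Gata3 (6.34). Nr4a1 encodes Nur77, an early target of the T cell receptor. Its C57BL/6 libraries read 7.15 and 7.19 in iNKT1, 7.31 and 7.34 in iNKT2, and 7.48 and 7.50 in iNKT17. Its Hivep3-/- libraries read 7.31 and 7.38, 7.37 and 7.29, and 7.31 and 7.34. In C57BL/6 the 3 subsets were stepped and did not overlap, whereas the Hivep3-/- groups overlapped, all within a range of 0.323. Id2, an inhibitor of E proteins that iNKT1 cells depend on, read 7.26 and 7.16 in C57BL/6 iNKT1, 7.23 and 7.0 in iNKT2, and 7.24 and 7.06 in iNKT17. In Hivep3-/- it read 7.11 and 7.04, 7.10 and 7.03, and 6.97 and 6.99, with Hivep3-/- iNKT17 lowest and C57BL/6 iNKT1 above the Hivep3-/- groups in both libraries.

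Genes that set the subsets apart were almost absent. Of 36 iNKT effector and marker genes with a listed promoter region, 2 had a strong one and 1 (2.78%) an invariant one, Gata3, the master factor of type 2 responses. At its start on chr2:9878387-9878886, the C57BL/6 libraries read 6.27 and 6.16 in iNKT1, 6.62 and 6.47 in iNKT2, and 6.45 and 6.39 in iNKT17. The Hivep3-/- libraries read 6.22 and 6.19, 6.33 and 6.37, and 6.33 and 6.31. The iNKT1 libraries of both genotypes were below the rest, and the range of 0.340 fell inside the limit. The other strong gene of that list, Il2rb, for the CD122 chain used in sorting, had 2 varied regions that differed in the place of iNKT1. One (range 0.774) had C57BL/6 group means of 7.33, 7.44 and 8.10 in iNKT1, iNKT2 and iNKT17, and the other (range 0.506) of 8.06, 7.62 and 7.88. Of the genes that the study names for the knockout, 24 had a listed promoter region. Of these 24, 6 (25%) had an invariant promoter, against 32.4% over all genes. They were Egr1, Nr4a1, Egr2, Id2, Drosha and Hivep3 itself. Of the 10 genes of this list with a strong promoter 60% had an invariant one, against 87.1% over all genes. Drosha, the nuclease that releases microRNA precursors, read 7.06 and 7.08 in C57BL/6 iNKT1, 7.08 and 7.04 in iNKT2, and 7.03 and 6.90 in iNKT17. It read 7.0 and 6.94, 7.01 and 6.85, and 7.06 and 6.80 in Hivep3-/-. Both Hivep3-/- libraries lay below both of C57BL/6 in iNKT1 and iNKT2, while in iNKT17 the genotypes overlapped. The lowest values, 6.80 and 6.85, came from Hivep3-/- libraries of iNKT17 and iNKT2.

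**Figure D4:**
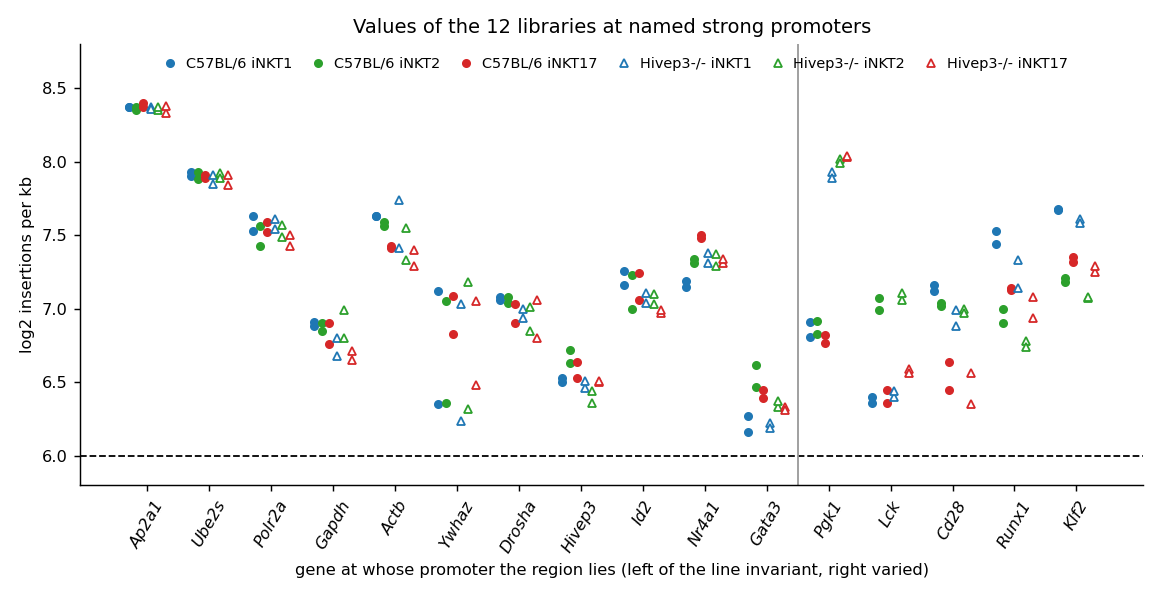
Values of the 12 libraries (log2 insertions per kb) at named strong promoters, filled circles for C57BL/6 and open triangles for Hivep3-/-, coloured by subset; promoters left of the vertical line were invariant and those right of it varied. Ap2a1 had a range of group means of 0.028, while at Pgk1 the Hivep3-/- libraries lay between 7.89 and 8.04 and the C57BL/6 libraries between 6.77 and 6.92.

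Strong promoters of the same classes that missed the limit differed between subsets, between genotypes or in both. Lck, the kinase that starts receptor signalling, had a region with group means of 6.38, 7.03 and 6.40 in C57BL/6 iNKT1, iNKT2 and iNKT17 and of 6.42, 7.09 and 6.57 in Hivep3-/-, so that iNKT2 was highest in both genotypes. Its second strong region, just upstream of a start (-26 bp), was lowest in iNKT17, with 6.64, 6.73 and 6.17 in C57BL/6 and 6.71, 6.76 and 6.19 in Hivep3-/-. Cd28, the costimulatory receptor, was lowest in iNKT17, with 7.14, 7.03 and 6.54 in C57BL/6 and 6.94, 6.99 and 6.46 in Hivep3-/-. Runx1, a Runt factor, was highest in iNKT1, with 7.49, 6.95 and 7.13 in C57BL/6 and 7.24, 6.76 and 7.01 in Hivep3-/-. Klf2, which keeps up receptors for leaving the thymus, had 7.68, 7.19 and 7.33, and 7.60, 7.07 and 7.27. Lat (range 0.462), Runx3 (0.404), Ets1 (0.405), Prdm1 (0.439), Id3 (0.500) and Maf (0.534) were nearer the limit. Of the genes the study names for the knockout, Bcl2a1d and Bcl2a1b, for survival proteins of the BCL2 family, averaged 6.51, 6.59 and 6.74, and 6.70, 6.69 and 6.77 in C57BL/6, and 6.45, 7.01 and 7.0, and 6.63, 6.93 and 7.04 in Hivep3-/-. Dusp1, a phosphatase of MAP kinases, averaged 7.77, 7.65 and 7.56 in C57BL/6 and 7.60, 7.35 and 7.52 in Hivep3-/-.

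The reference gene Pgk1, for a glycolytic kinase, differed between genotypes, and it is singled out after its values were seen. Its promoter region (chrX:106186746-106187245) read 6.81 and 6.91 in C57BL/6 iNKT1, 6.83 and 6.92 in iNKT2, and 6.77 and 6.82 in iNKT17. It read 7.93 and 7.89, 8.02 and 7.99, and 8.03 and 8.04 in Hivep3-/-. Each Hivep3-/- library lay above each C57BL/6 library, and the range of group means was 1.244. It was 1 of 5623 strong regions in which each Hivep3-/- group stood more than 0.5 above each C57BL/6 group, and in 0 strong regions was the order reversed by as much. Over the whole list 75 regions were higher by that gap and 63 lower. With any gap above 0, 103 strong regions were higher in Hivep3-/- and 269 lower, and 947 and 1166 over the whole list. A neighbouring region 889 bp inside the gene had group means from 4.07 to 4.44, and a region at 2177 bp from 2.66 to 3.99, so the step was not seen there. As background, the Pgk1 promoter is widely used to drive selection genes in targeting vectors. The labels do not say what the Hivep3-/- allele carries, and its part in the value was not tested.

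Away from starts, 498 regions were invariant and strong, and 403 of them were over 2000 bp from any start. Their median distance was 6683 bp, and the farthest lay 137083 bp away. Within 1000 bp of a start in a fuller annotation lay 85, and 47 were within that distance of a RefSeq start, which left 380 near a start of neither. Of the 498, 139 were CpG-rich (27.9%), against 8.43% of varied strong regions and 3.55% of all regions away from starts. A CTCF consensus match with at most 1 mismatch was found in 60 (12%), compared with 6.49% of varied and 16.6% of all regions away from starts. CTCF is the factor that anchors chromatin loops, and the share among invariant regions was below that over the whole list. SP/KLF letters were found in 23.1%, against 10.8% and 5.42%. Runt letters were found in 19.7%, 26.7% and 21.4%, and AP-1 letters in 19.7%, 26% and 19%.

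The highest of these regions lay upstream of Fbrs (8.48, range 0.057), a gene of the fibrosin family, with the CTCF match printed above, and near B4galnt1 (8.34), a glycosyltransferase, and Zfp869 (8.24). In introns, the highest lay 17874 bp past the start of Smox, for spermine oxidase (8.17, range 0.117), 1763 bp past that of Clec11a (8.12), 27306 bp past that of Gm36933 (8.07), 11538 bp past that of Gm17767 (8.02) and 10540 bp past that of Tnfrsf1b, for a TNF receptor (8.01, range 0.163). Others lay between genes, nearest to 1700124M09Rik (8.15) and Hook2 (8.02). The region upstream of Dnah17 (-15379 bp from its start) carried its CTCF match at a level of 7.93 with a range of 0.097.

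Small differences remained within the limit, and they leaned in a few directions. The group with the highest mean was most often C57BL/6 iNKT2, in 1053 invariant regions (25.2%), and the lowest most often Hivep3-/- iNKT17, in 1183 (28.3%). In varied strong regions the shares of these groups were 13.6% and 15.4%. Averaged over the invariant regions, the libraries lay between 6.89 and 6.96. The median difference of Hivep3-/- from C57BL/6 in iNKT1 was -0.015, in iNKT2 -0.024 and in iNKT17 -0.038. In varied strong regions the medians had the opposite sign, at 0.021, 0.016 and 0.030. From 5% to 95% of the invariant regions, the differences ran from -0.139 to 0.127, from -0.187 to 0.150 and from -0.184 to 0.124. Base content moved with them. In 1386 regions with the highest GC share, C57BL/6 iNKT17 lay 0.036 above the mean of the groups and Hivep3-/- iNKT2 0.030 below it (-0.030), whereas in the 1414 with the lowest Hivep3-/- iNKT2 lay 0.040 above it. The part of base content in the group differences was not tested.

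A pattern by replicate number was seen after the values were examined. Ywhaz, for a 14-3-3 protein, had 6.35 and 7.12 in C57BL/6 iNKT1, 6.36 and 7.05 in iNKT2, and 6.83 and 7.09 in iNKT17, with the first replicate named first. In Hivep3-/- it had 6.24 and 7.03, 6.32 and 7.18, and 6.48 and 7.05. Its replicate 2 was higher in 6 of 6 groups, so the group means stayed within 0.322 while the libraries did not. In 427 invariant regions (10.2%) replicate 2 was higher in 6 of 6 groups, and in 665 (15.9%) replicate 1 was. The former had a median GC share of 0.692 and made up 22.9% of the 1386 regions with the highest GC share, 6.38% of the 1379 in the middle and 1.56% of the 1414 with the lowest. The latter made up 11.1%, 18.7% and 17.9%. Egr1, the immediate early factor, was of the former kind, with 7.18 and 7.60 in C57BL/6 iNKT1 and 7.13 and 7.73 in Hivep3-/- iNKT1. The part of GC content in this order was not tested.

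The rest of each locus holds listed regions that did not meet the rule. The 4033 genes with an invariant promoter had 12904 other listed regions in the gene or within 10 kb of it, and 3502 genes had at least 1. Of the other regions, 9147 lay away from any start. The rule read their values too, and set aside as invariant what met it, so these regions are not independent of it; 374 of them were strong and varied. The fit was made over the whole list, and a region counted as changed at a limma adjusted p under 0.1 with at least a 3-fold difference. The invariant regions themselves were called in 0 of 4179 cases in each comparison, as the rule demands, and they are part of all tested regions below. Regions that were neither invariant nor in these loci, called elsewhere, are given beside them. The 3 comparisons between subsets of C57BL/6 share libraries with each other and with the comparisons of genotype.

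Between subsets, many loci with an invariant promoter held regions that changed. From iNKT1 to iNKT2, 1495 of 12034 tested other regions (12.4%) were called by limma, 713 higher in iNKT1 and 782 lower, against 16% of all tested regions and 18.7% elsewhere. From iNKT1 to iNKT17, 2004 of 12227 (16.4%) were called, 933 higher in iNKT1 and 1071 lower, against 20.5% and 23.7%. From iNKT2 to iNKT17, 1630 of 12138 (13.4%) were called, 720 higher in iNKT2 and 910 lower, against 16.2% and 18.6%. The shares lay below the background in each comparison, also among regions away from starts, at 16.8%, 21.8% and 18.2% against 21.8%, 27.6% and 22.1%. By gene, 1001, 1138 and 994 of the loci held a called region, which is 28.8%, 32.9% and 28.6% of those tested. For the 595 genes with a varied strong promoter and no invariant one the shares were 31.6%, 35.1% and 30.1%, so such changes are not particular to loci with an invariant promoter.

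The largest changes by value set an even promoter beside a region that differed between subsets. Dhx37, for an RNA helicase, had a promoter at 6.32 with a range of 0.294, and 3.44 kb away an intronic region (chr5:125430506-125431005) read 7.57 and 7.62 in C57BL/6 iNKT17. It read -0.42 and -2.39 in iNKT1 and -3.79 and -1.59 in iNKT2 (limma adjusted p 1.51e-07 and 9.89e-08 against iNKT17). In Hivep3-/- iNKT17 it read 7.47 and 7.47, so the iNKT17 libraries of both genotypes stood apart from the other 8. Zranb3, for a DNA translocase at stalled forks, had a promoter at 7.81 (range 0.153) and an intronic region 93.3 kb away that was listed at the lowest value in both C57BL/6 iNKT1 libraries and averaged 5.92 in iNKT17. Tef, for a bZIP factor, had a promoter at 7.29 and a region 8.57 kb inside the gene that averaged 6.45 in C57BL/6 iNKT1, 3.41 in iNKT2 and -3.17 in iNKT17, where 1 library was listed at the lowest value.

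Regions with large differences between subsets lay at other loci as well. Snx1, for a sorting nexin, held a region with both iNKT1 libraries at the lowest value and a mean of 5.71 in iNKT17, and Nagk one that averaged 5.04 in iNKT1 and lay at the lowest value in both iNKT17 libraries. Spcs2, for a subunit of the signal peptidase, held a region that averaged 6.19 in iNKT17 and -3.24 in iNKT2 (adjusted p 8.63e-07 with limma). Between iNKT1 and iNKT2, regions at Eya2 (3.37 and -3.92), Nsmce1 (4.96 and -1.55) and Arhgap26 (2.91 and -3.66) were higher in iNKT1, and regions at Stard9 (-3.45 and 3.26) and Trappc9 (-1.53 and 3.32) were higher in iNKT2, as group means in C57BL/6. Both iNKT1 libraries at Stard9, 1 at Trappc9 and 1 iNKT2 library at Arhgap26 were listed at the lowest value. Between iNKT2 and iNKT17, regions at Garnl3 (3.07 and -4.05, the latter the lowest value in both libraries) and Borcs5 (3.74 and -2.85, with 1 iNKT17 library at the lowest value) were higher in iNKT2.

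Among loci of T cell genes, Cd5 had an invariant promoter (6.32, range 0.320) and 13 other regions, of which 8 of 12 tested were higher in C57BL/6 iNKT1 than iNKT17 by limma, and 7 of 11 higher in iNKT2 than iNKT17. At one of them, 8.89 kb upstream, the group means were 7.46, 6.88 and 4.87 in C57BL/6 iNKT1, iNKT2 and iNKT17, and 7.59, 6.60 and 5.09 in Hivep3-/- (limma difference between C57BL/6 iNKT1 and iNKT17 2.59, SE 0.09, adjusted p 3.87e-10). Nr4a1 had 10 other regions, 5 of them lower in iNKT1 than iNKT17 by limma. Rora, for a nuclear receptor of type 17 cells, had 45 others, of which 13 of 40 tested were lower in iNKT1 than iNKT17 and 2 higher. At Rela, Zap70, Egr2 and Tcf3, limma called 0 of 3, 6, 6 and 2 tested other regions in each comparison between subsets, with 0 to 4 regions of a locus at an unadjusted p under 0.05, and at Cd3e, Egr1 and Zbtb7b it called 1. With so few regions tested, these counts do not stand apart from the share over all loci. At the 9 loci of reference genes with an invariant promoter other than Actb, such as Gapdh, Polr2a, B2m and Ywhaz, limma called 0 of 40 other regions in each of the 6 comparisons, with 5 to 17 of them at an unadjusted p under 0.05. The shares over all loci, given above for the subsets and below for the genotypes, are such that calls among 40 would be expected between subsets and hardly any between genotypes. At Actb it called 1 region in each of the comparisons of C57BL/6 iNKT1 with the other subsets.

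Between genotypes, few regions of these loci passed both the p and the fold limit. In iNKT1, 93 of 11384 tested other regions (0.817%) were called by limma, 70 higher in Hivep3-/- and 23 lower, against 1.15% of all tested regions and 1.38% elsewhere. In iNKT2, 153 of 11501 (1.33%) were called, 61 higher and 92 lower, against 1.68% and 1.96%. In iNKT17, 29 of 11440 (0.253%) were called, 20 higher and 9 lower, against 0.271% and 0.305%. Over the whole list the calls were 482 higher and 143 lower in iNKT1, 261 and 662 in iNKT2, and 72 and 75 in iNKT17. The split in iNKT2 depends on the fold limit, as 273 of 509 other regions called at 2-fold were higher. The iNKT17 count rests on single libraries. It was 18 without C57BL/6 iNKT17 replicate 1 and 22 without Hivep3-/- iNKT17 replicate 2, and 56 without the other library of either group. In the last 2 cases its share, 0.488% without C57BL/6 iNKT17 replicate 2 and 0.489% without Hivep3-/- iNKT17 replicate 1, was above that of all tested regions, 0.352% and 0.479%, as it was after renewed quantile normalisation (0.324% against 0.311%). The part called higher was 69% with all libraries and 44.4% and 40.9% without the first named libraries.

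Drosha joined an even promoter to a gene body that changed. Of its 8 other regions, 5 were lower in Hivep3-/- iNKT1 by limma, 1 of 8 tested was lower in iNKT2, and 0 of 5 tested were called in iNKT17, where 4 had an unadjusted p under 0.05. The intronic region 104 kb from the promoter (chr15:12928963-12929462) read 4.19 and 3.83 in C57BL/6 iNKT1 and 0.20 and -0.61 in Hivep3-/- iNKT1 (limma difference -4.21, SE 0.49, adjusted p 0.000265). It read 2.98 and 2.83 against 0.90 and 1.02 in iNKT2. In iNKT17, where the region was below the limit for a test, it read 1.91 and 2.05 against -1.52 and 0.19. The Hivep3-/- libraries were lower in the 3 subsets. Regions at 101 kb and 40.1 kb differed by -3.58 (SE 0.59, adjusted p 0.00297) and -2.73 (SE 0.47, adjusted p 0.00411) in iNKT1 by limma. Hivep3 itself had 20 other regions, and limma called 0 of 19, 0 of 17 and 0 of 11 tested in the comparisons of genotype in iNKT1, iNKT2 and iNKT17, with 5, 2 and 5 of them at an unadjusted p under 0.05. Between C57BL/6 subsets, 6 of 18 were higher in iNKT1 than iNKT17 and 6 of 16 higher in iNKT2 than iNKT17.

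**Figure D5:**
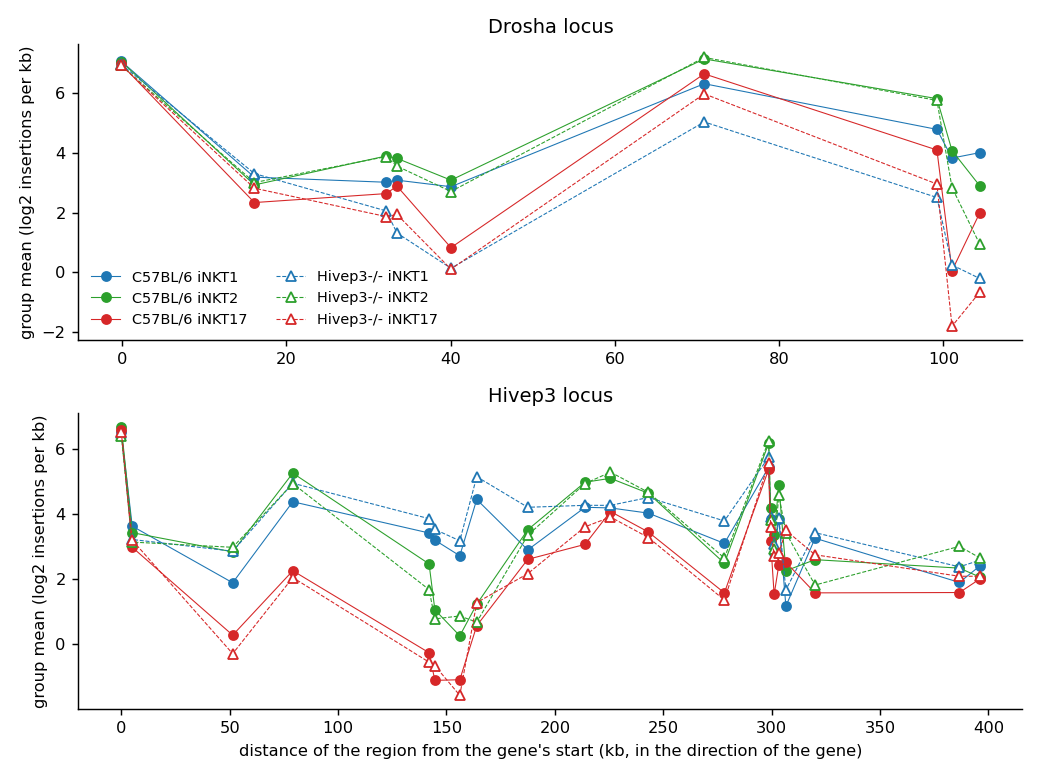
Group means (log2 insertions per kb) of the listed regions of Drosha and Hivep3 by distance from the start of the gene (kb), circles for C57BL/6 and triangles for Hivep3-/-, coloured by subset; lines join regions of a group and are no measurement between them. The 6 groups meet at the invariant promoter at 0 kb, which the rule selected for close group means, while the other regions did not meet the rule. Groups lay apart in the gene bodies, as at Drosha 104 kb from the promoter, with 4.01 in C57BL/6 iNKT1 and -0.20 in Hivep3-/- iNKT1.

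Other loci with the largest changes between genotypes were these. In iNKT1, a region 28.8 kb into Bpgm, for an enzyme that makes bisphosphoglycerate, read -1.72 and -0.67 in C57BL/6 and 2.57 and 2.84 in Hivep3-/- (limma difference 3.90, SE 0.44, adjusted p 0.000234), with the promoter at 7.22 and a range of 0.154. A region in Mad1l1, for a spindle checkpoint protein (difference 3.12, SE 0.52, limma adjusted p 0.00323), was also higher. In iNKT2, a region at 1700037H04Rik averaged 3.51 in C57BL/6 and -2.58 in Hivep3-/-, where 1 library was listed at the lowest value, and a region at Arhgap26 (4.10 and -0.76) was lower as well. The gene Fhit, for a hydrolase at a fragile site, held 3 regions higher in Hivep3-/- iNKT2, by 3.71, 3.22 and 3.19. The calls of the first 2 of these were lost without any 1 of the 4 iNKT2 libraries.

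In iNKT17, a region 3.95 kb upstream of the Ube2s promoter read 1.51 and 0.82 in C57BL/6 and 3.68 and 2.91 in Hivep3-/- (limma difference 2.13, SE 0.30, adjusted p 0.00549), while the 12 libraries at the promoter lay between 7.84 and 7.93. Nek7, for a kinase that licenses the NLRP3 inflammasome, had an intronic region at 4.34 and 3.65 in C57BL/6 and 1.32 and 1.35 in Hivep3-/- (limma difference -2.66, SE 0.25, adjusted p 0.000429). Arhgap17 held a lower region (difference -2.53, SE 0.39, limma adjusted p 0.00677). Regions near Fosl2, for an AP-1 subunit, and Ifrd1 were higher, with group means of 1.17 and 3.82, and 2.33 and 4.54, and their calls were lost without C57BL/6 iNKT17 replicate 1 or Hivep3-/- iNKT17 replicate 2. A region in Prdm10 averaged 2.32 in C57BL/6 and -1.68 in Hivep3-/-, where 1 library was listed at the lowest value, and its call was lost without C57BL/6 iNKT17 replicate 1. With 5 added to the linear values before the logarithm, 13 of the 18 calls followed up between genotypes were lost, and those at Drosha 104 kb and 101 kb from the promoter, the first of Fhit, 1700037H04Rik and Arhgap26 held. Of the 18 between subsets 4 were lost, at Arhgap26, Stard9, Trappc9 and Garnl3.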

How the data were processed

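The values are a table of 63309 regions by 12 libraries, and 0 of its columns belonged to no sample. Per the labels and the methods, the authors trimmed reads with Trimmomatic 0.39, aligned them to mm10, counted transposase insertions in merged peaks of 500 bp, and deposited log2 insertions per kb after quantile normalisation; read depth is not given. Members were found from the deposited values as described in the report. The members and the gene lists were chosen with earlier results of these data known. Place, GC content and motifs were read from GRCm38.p6 and the GENCODE vM21 basic annotation, with Python 3.11.15, pandas 2.3.3, numpy 2.4.6, scipy 1.17.1, pysam 0.24.0, samtools 1.23.1 and matplotlib 3.10.9.

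Other regions of the loci were tested with limma 3.58.1 in R 4.3.3, with 1 mean per group over 12 libraries and a variance trend (residual degrees of freedom 6, prior 7.17), after a test of the script on simulated data. A region was tested where 1 of the compared groups averaged 5 or more on the linear scale, with Benjamini-Hochberg adjustment over the whole table. The replicate numbers come from the mouse numbers in the titles. Residuals of replicates with the same number correlated at 0.113 to 0.171 between groups, so a replicate block was run as an alternative. Named members were the 10 highest, the 10 most even, the 3 on each side of each limit, the 10 highest away from starts and up to 4 of each gene class, with some items not reported here; the other regions followed up were the 3 largest rises and the 3 largest falls of each comparison. Alternatives changed both limits, the promoter distance, the starts, the CpG definition, the filter, the added constant, the fold and the assignment of regions, and left out each library in turn.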

Additional observations from a re-analysis of the deposited data

Results flagged for a closer look

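For 13 differences at named regions, the change between genotypes was not the same in 2 subsets, by the interaction term of the limma fit over the whole table with the adjusted p under 0.1 and the difference 3-fold or more. The regions were picked for the largest change in 1 of the subsets, in the same libraries, so a larger change in that subset is partly built in. Values are log2 differences between subsets of the change from C57BL/6 to Hivep3-/-. The Bpgm region changed more in iNKT1 than in iNKT2 by 3.53 (SE 0.63, limma adjusted p 0.00614) and than in iNKT17 by 3.91 (SE 0.63, limma adjusted p 0.00838). The Mad1l1 region changed more in iNKT1, by 2.39 against iNKT2 (SE 0.74, limma adjusted p 0.0744) and 4.31 against iNKT17 (SE 0.74, limma adjusted p 0.0109).

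At Drosha, the change in iNKT1 minus that in iNKT2 was -2.27 at 104 kb from the promoter (SE 0.69, limma adjusted p 0.0701). It was -2.35 at 40.1 kb (SE 0.67, limma adjusted p 0.0552). Against iNKT17 these regions were not called, at -1.57 (SE 0.69, limma adjusted p 0.317) and -2.02 (SE 0.67, limma adjusted p 0.168). The region at 101 kb was called against neither subset, at -2.34 for iNKT2 and -1.72 for iNKT17 (limma adjusted p 0.124 and 0.378). At Fhit, the iNKT1 minus iNKT2 difference was -5.92 (SE 1.30, limma adjusted p 0.0171) at the region that changed by 3.22 in iNKT2. It was -4.91 (SE 0.78, limma adjusted p 0.0034) at the region that changed by 3.19. The call of the former in iNKT2 was lost without any 1 of the 4 iNKT2 libraries and with 5 added to the linear values, and its iNKT1 libraries read low, at -0.11 and -1.65 in C57BL/6 and -4.05 and -3.12 in Hivep3-/-. With 5 added, the calls of the latter, Bpgm, Mad1l1, Ube2s, Nek7, Arhgap17 and the Drosha region at 40.1 kb were lost too. At 1700037H04Rik the change in iNKT1 minus that in iNKT2 was 3.98 (SE 1.13, limma adjusted p 0.0538), and that in iNKT2 minus that in iNKT17 was -5.64 (SE 1.13, limma adjusted p 0.0307). The iNKT17 libraries of this region read low, at -1.06 and -1.65 in C57BL/6 and -3.06 and -0.55 in Hivep3-/-. That left little room for a fall in iNKT17. The change in iNKT2 minus that in iNKT17 was -1.63 at the region near Ube2s (SE 0.42, limma adjusted p 0.0805), 2.10 at that of Nek7 (SE 0.36, limma adjusted p 0.016) and 2.02 at that of Arhgap17 (SE 0.55, limma adjusted p 0.0922).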

How the results depend on the processing

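Of the values recomputed under other settings, 151 stayed within a limit, for counts 1.5 times the main count either way and for shares the 95% Wilson interval, and 42 did not; the cause was not tested. With the level limit at 5, 7102 regions were invariant, 85.9% at promoters and 78.4% CpG-rich; with it at 7, 1237 were, 84.4% CpG-rich. With the limit on group means at 0.3 the promoter share was 91% and the CpG-rich share 85.2%, and at 0.5 they were 85.4% and 78.1%. With the range taken over the 12 libraries instead of the group means, 2804 regions were invariant, 67.1% of the main count. The promoter share was 84.4% within 500 bp of a start, 90.4% within 2000 bp, 85.5% with starts of protein-coding genes alone, and 90.1% with all annotated starts, a setting chosen after seeing the data, as was leaving out other strong regions from the loci. A stricter CpG definition gave 57.1%, and an exact CTCF consensus 2.81% of regions away from starts.

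Called other regions are given for the changes between genotypes in iNKT1, iNKT2 and iNKT17. Without the filter on low values they numbered 159, 247 and 84, with 1 added to the linear values 59, 86 and 14, with 5 added 4, 12 and 0 by limma (2184, 3205 and 2183 had an unadjusted p under 0.05), at 2-fold 312, 509 and 135, and with regions assigned to the nearest start within 100 kb 49, 66 and 12. Between C57BL/6 iNKT1 and iNKT2, iNKT1 and iNKT17, and iNKT2 and iNKT17, they numbered 370, 828 and 582 with 5 added, 2728, 3299 and 2769 at 2-fold, and 844, 1136 and 954 by nearest start. With the replicate block they numbered 101, 164 and 33 between genotypes and 1498, 2005 and 1631 between subsets, and the block, also within genotype (101, 163, 34, 1498, 2005 and 1631), ended 0 of 18 calls followed up between genotypes and 0 of 18 between subsets. A filter on the mean of the 12 libraries, 5 or more, ended 9 and 6 of them.

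Without each library in turn, the invariant regions numbered 4011 to 4194, the promoter share was 87.8% to 88.3% and the CpG-rich share 81% to 81.6%. The called other regions numbered 63 to 108 in iNKT1, 125 to 165 in iNKT2 and 18 to 56 in iNKT17 between genotypes, and 1421 to 1558, 1994 to 2062 and 1604 to 1663 between subsets. A group left with 1 library was assumed to vary like the others. Depth is unknown and 2 libraries a group limit what the fit can call.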
